A study of Mus musculus with 21 samples.

Results

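The genes described here encode the proteasome, the protease that degrades proteins tagged with ubiquitin, and the values are how far peaks of H3K36me3 extended over each gene body. Members were all protein-coding RefSeq genes of the mouse assembly GRCm38.p6 with a symbol that starts with Psm, then a letter from a to g, then a number. The rule found 51 of 21887 protein-coding genes on chromosomes 1 to 19, X and Y. It took in 2 genes that encode no part of the proteasome: Psmc3ip, a factor of meiotic recombination, and Psme3ip1, a protein that binds the activator PSME3. The other 49 fell into 8 subunits of the 20S alpha ring, 7 constitutive 20S beta subunits, 4 beta subunits of the immunoproteasome and thymoproteasome, 6 ATPases of the 19S cap, 11 other 19S subunits, 3 chaperones of 19S assembly, 5 activator genes, 1 inhibitor and 4 chaperones of 20S assembly. A body of at least 2 kb, the minimum for a test, was found in 50 members, and Psme2b at 1.07 kb was under it.

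The libraries came from C2C12, an established mouse myoblast line that fuses into muscle fibres in culture. Chromatin immunoprecipitation with sequencing (ChIP-seq) was done with an antibody against H3K36me3 at day 0, at day 1 and at day 5, with the last 2 days sampled in control medium (CTL) and under methionine restriction (MR). Wild-type (WT) cells gave 2 libraries per condition, 10 in all, and each of 2 Setd2 knockout (KO) lines gave 1 library per condition, 10 in all. Drosophila chromatin was added as a spike-in, per the labels. All groups are the same cell line, and all were fixed in formaldehyde. The labels give neither how the KO lines were made nor the composition of the restricted medium, and nothing in them says that WT replicates are separate cultures, so p-values measure the spread between these libraries, which may be technical. The peak names inside the lists call the KO libraries replicates 1 and 2 of 1 group, where the labels call them lines 1 and 2, and the labels were followed. SETD2 itself was not assayed.

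The proteasome is a barrel with a lid. Alpha rings gate the 20S barrel, beta rings hold the proteolytic sites, and the 19S cap uses ATPases to unfold substrates while its other subunits bind and remove ubiquitin. In muscle, the proteasome carries much of the protein breakdown of remodelling and atrophy. H3K36me3 is placed by SETD2 as RNA polymerase II elongates, so it lies over the bodies of transcribed genes and not over their promoters. S-adenosylmethionine, made from methionine, is the methyl donor of the reaction.

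Promoters are shown for 4 members that the results turn on: Psmb4 and Psmb5, among the members that lost most cover under restriction; Psme1, which lost cover between day 1 and day 5 in control medium; and Psmd10, which gained cover under restriction. Each is the RefSeq GRCm38.p6 window from 250 bases before to 50 bases after the annotated start, read 5′ to 3′ on the strand of the gene. Capitals mark TGACNNNGC, the core of the antioxidant response element bound by NFE2L1 and NFE2L2, or CCAAT, the box bound by NF-Y, each searched on both strands.
Psmb4 (chr3:94886909-94887208, minus strand): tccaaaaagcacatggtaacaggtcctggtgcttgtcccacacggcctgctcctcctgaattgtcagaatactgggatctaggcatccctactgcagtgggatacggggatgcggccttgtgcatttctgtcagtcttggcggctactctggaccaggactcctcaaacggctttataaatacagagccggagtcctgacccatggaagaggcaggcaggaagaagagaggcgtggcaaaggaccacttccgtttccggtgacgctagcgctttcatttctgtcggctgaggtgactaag
Psmb5 (chr14:54617946-54618245, minus strand): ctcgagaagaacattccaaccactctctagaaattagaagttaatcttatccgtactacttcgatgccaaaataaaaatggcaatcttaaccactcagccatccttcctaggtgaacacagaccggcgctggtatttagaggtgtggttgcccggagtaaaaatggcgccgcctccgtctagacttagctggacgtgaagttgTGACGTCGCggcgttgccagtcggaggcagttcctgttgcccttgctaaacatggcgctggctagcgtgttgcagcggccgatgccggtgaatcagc
Psme1 (chr14:55578244-55578543, plus strand): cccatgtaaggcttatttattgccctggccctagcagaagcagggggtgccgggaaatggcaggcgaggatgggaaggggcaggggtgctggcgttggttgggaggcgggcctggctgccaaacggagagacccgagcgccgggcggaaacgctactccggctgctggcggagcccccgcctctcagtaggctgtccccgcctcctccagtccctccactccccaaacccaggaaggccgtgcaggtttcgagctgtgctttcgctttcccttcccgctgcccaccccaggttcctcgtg
Psmd10 (chrX:140956662-140956961, minus strand): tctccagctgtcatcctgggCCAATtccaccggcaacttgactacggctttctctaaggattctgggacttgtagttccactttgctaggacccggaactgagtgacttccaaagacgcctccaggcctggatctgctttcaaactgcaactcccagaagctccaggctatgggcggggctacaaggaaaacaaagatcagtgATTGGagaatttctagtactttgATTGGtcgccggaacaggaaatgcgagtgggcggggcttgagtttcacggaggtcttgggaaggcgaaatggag
Psmb5 held 1 match to TGACNNNGC, Psmd10 held 3 to CCAAT, and neither string was found in the windows of Psmb4 and Psme1. The promoter table held 47 windows for 43 of the 51 members. TGACNNNGC was found in 12.8% of these windows and in 12.4% of all 32851 windows of the table, and CCAAT in 34.0% and 37.4%. No member's window held both strings, and a match is a description of letters.

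None of these 43 members' windows, 1 per member, held a peak in any of the 10 WT libraries. Over the 9792 windows of all genes tested below, 1.74% to 4.76% held a peak in these libraries. The single promoter window with a peak in a KO library was that of Psma2, an alpha subunit, covered to 77.7% in KO line 1 and to 97.7% in KO line 2, in the control lists of day 5. In the same KO libraries 1.84% and 7.32% of all 9792 windows held a peak. In KO line 2 the body of Psma2 was covered to 0.35% in that library.

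Cover is the percent of a gene body, from annotated start to end, that lies inside merged peaks, and a gene with at least 50% is called marked. Of the 50 members, 37 and 35 were marked in the day 0 libraries, 33 and 35 in the control libraries of day 1, and 35 in each control library of day 5. Under restriction 24 and 22 were marked at day 1, and 30 in each library at day 5. As percentages these were 44% to 74% of members, against 12.5% to 28.3% of all 19304 protein-coding genes of at least 2 kb in the same libraries. The heat map of cover by library shows that most members were covered in the WT libraries and that a few had no peak in any list.

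**Figure D1:**
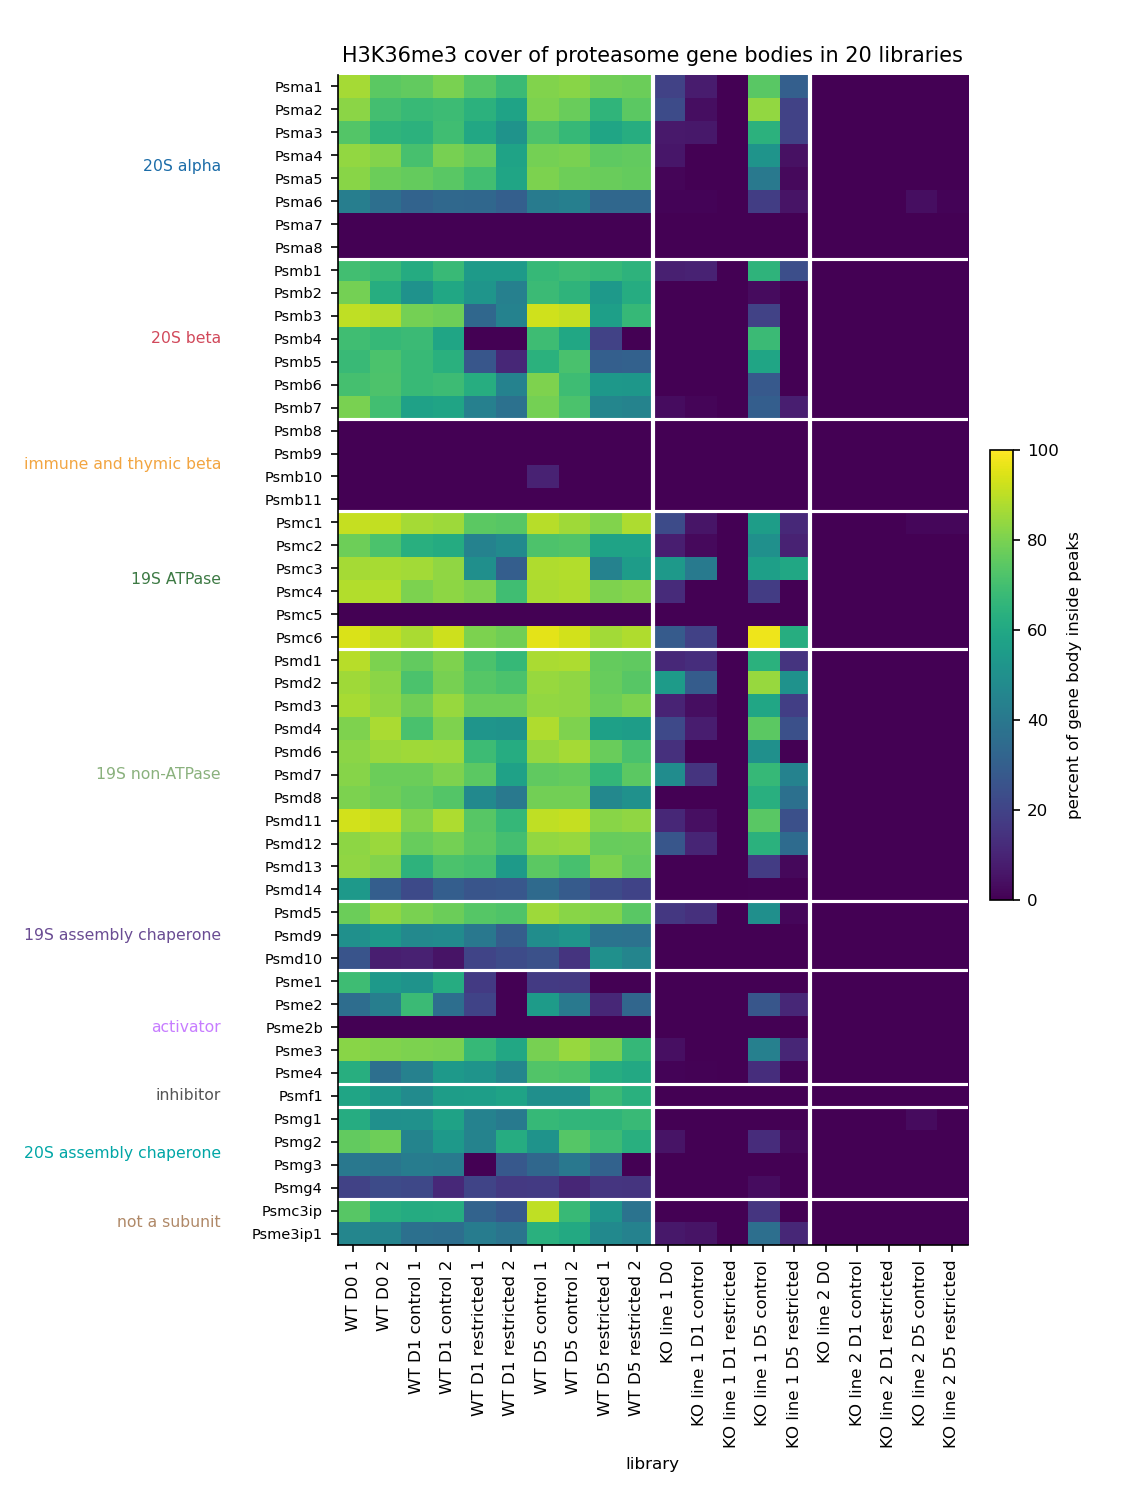
Each row is a proteasome gene, grouped by role, and each column is 1 of the 20 libraries, 10 WT and 5 from each KO line. Colour gives the percent of the gene body inside peaks, from 0 to 100. Dark rows such as Psma7, Psmb8 and Psmc5 had no peak in any list, and KO line 1 at day 5 in control medium stands apart from the other KO columns.

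The subunits of the 19S cap had the highest cover by role. The median of their means over the 10 WT libraries was 76.4% for the ATPases and 78.4% for the other 19S subunits, beside 67.6% for the alpha ring, 59.7% for the constitutive beta ring, 44.6% and 43.3% for the chaperones of 19S and 20S assembly, and 34.2% for the activators. Psmc6 averaged 88.7% over the 10 WT libraries (range 78.4% to 95.9%), the highest of all members, and Psmc1 and Psmc4 averaged 84.7% and 82.8%. Among the other 19S subunits the mean ran from 29.6% for Psmd14, the deubiquitinase of the lid and at 88.7 kb the second longest member, to 84.1% for Psmd11, a lid subunit. In the alpha ring Psma1 was highest at 77.8%, and in the constitutive beta ring the means ran from 41.1% for Psmb4 to 72.1% for Psmb3. These means pool control and restricted libraries, and that of Psmb4 holds restricted values of 0, 0, 19.5% and 0; in control medium at day 1 Psmb2 was the lowest of the beta ring at 55.1% and Psmb4 was at 63.6%. Among the assembly chaperones of the 20S core Psmg4 averaged 17.1% and Psmg2 61.6%, and among those of the 19S base Psmd10 averaged 22.9% and Psmd5 78.7%. Psme3, the nuclear activator, averaged 76.1% and Psmf1, the inhibitor PI31, 56.2%.

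In 7 members no peak touched the body in any of the 20 lists: Psma7, Psma8, Psmb8, Psmb9, Psmb11, Psmc5 and Psme2b. Psma8 encodes the alpha subunit of the testis proteasome, Psmb11 the beta subunit of the thymus proteasome, and Psmb8 and Psmb9 encode catalytic subunits of the immunoproteasome, which interferon induces. Psmb10, the third immunoproteasome subunit, was covered to 9.38% in the first day 5 control library and to 0 in the other 19 libraries. Their constitutive counterparts were covered: Psmb5, the chymotrypsin-like subunit, averaged 50.5%, Psmb6, the caspase-like subunit, 64.1%, and Psmb7, the trypsin-like subunit, 58.7%. Psmb11 (chr14:54625310-54629556) lies near Psmb5, and the nearest peak to its right was 0.487 kb to 2.04 kb away in the lists of the WT libraries.

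Psma7 and Psmc5 encode subunits of the standard proteasome, which every cell is known to need. Psma7 (chr2:180036367-180042464) encodes a constitutive alpha subunit and lies in a span of 142 kb that held no peak in any WT list, together with Lsm14b, Ss18l1, Mtg2 and Hrh3. Psmc5 (chr11:106256185-106263112), an ATPase, lies in such a span of 63.1 kb, with Smarcd2, Tcam1, Gh and Cd79b, and the nearest peak to its left was 1.37 kb to 1.97 kb away. Why these spans hold no peak was not tested, and a list of peaks cannot tell a lack of the mark from a region left out of peak calling.

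Peaks were ranked within each list by the authors' fold enrichment. The best peak of the median member was at the 92.3 to 97.3 percentile of its list in the 10 WT libraries, and that of the median tested gene at the 88.1 to 92.7 percentile; these are the best of several peaks per gene, and the difference was not tested. Psmd3, a 19S lid subunit, had the highest median rank, at the 99.7 percentile. Long members were broken into more peaks: the body of Psme4, the 109 kb gene of the activator PA200, held 12 to 41 peaks, and that of Psmd4, the ubiquitin receptor, 1 to 3.

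Methionine restriction for 1 day lowered cover in 18 of the 43 members that could be tested, and raised it in 0, with an unadjusted p under 0.05 in 26. A member was tested where its mean cover over the 10 WT libraries was at least 5%, and 9514 genes passed in all. Tests were made with limma over all of them, with Benjamini-Hochberg adjusted p-values called under 0.05. Over all tested genes 36% were called lower and 2.38% higher, so the members' share of lower calls was near that of all genes. An unadjusted p under 0.05 was found in 4516 of the 9514. The median difference of the 43 members, restricted minus control, was -10.99 percentage points, beside -7.99 over all 9514 genes. Restricted lists covered less of the genome as a whole, 110 and 128 Mb at day 1 beside 140 and 150 Mb in control lists, and the calls depended on the scale. With each library centred on its own median, 6 members were called lower and 9 higher (1245 and 3518 of all genes), and with every list trimmed to the same covered length, 12 lower and 4 higher (1972 and 846). Centring moved the median difference to 4.198 points over the members and to 7.20 over all genes, and the same at day 5 gave 7.82 and 7.52. Without the first or the second control library of day 1 the count was 10 or 11. The 6 that fell also after centring were Psmb3, Psmb4, Psmb5, Psmc3, Psmd8 and Psme1.

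Psmb4, a non-catalytic beta subunit encoded by a gene of 2.6 kb (chr3:94884324-94886958), changed most. Its cover was 68.2% and 59.0% in the control libraries of day 1 and 0 in both restricted ones. At day 5 it was 69.1% and 59.4% in control medium, and 19.5% and 0 under restriction. The groups did not overlap on either day. The differences were -63.6 points (SE 6.68, adjusted p = 0.00022, limma) at day 1 and -54.5 points (SE 6.68, adjusted p = 0.00035, limma) at day 5. In each control list of these days 1 peak touched the body of Psmb4. Its length ran from 7819 to 23768 bases, so it reached well beyond the gene, and cover outside the body was not part of the measure.

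Psmb5 (chr14:54614120-54617995), the target of the drug bortezomib, went from 67.5% and 63.5% to 26.9% and 10.99% at day 1. At day 5 it went from 64.0% and 71.3% to 30.1% and 31.2%. Restricted libraries were below control libraries on both days, with a difference of -46.57 (SE 5.59, adjusted p = 0.00043, limma) at day 1 and -36.95 (SE 5.59, adjusted p = 0.0010, limma) at day 5. Psmb5 has a named pseudogene copy elsewhere in the genome, as have Psma5, Psmb6 and Psmb7, so reads of these genes may be shared with the copy.

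Psmc3 (chr2:91054016-91059438), a 19S ATPase, had cover of 86.2% and 83.6% in control medium and of 49.9% and 29.7% under restriction at day 1. At day 5 the values were 88.1% and 88.5% in control medium and 44.4% and 55.3% under restriction. Again no restricted library reached a control library, and the differences were -45.08 points (SE 6.28, adjusted p = 0.00090, limma) and -38.45 points (SE 6.28, adjusted p = 0.0015, limma).

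Psmb3 (chr11:97703434-97713500), a beta subunit in a gene of 10.1 kb, had 78.9% and 78.0% in control medium and 33.2% and 44.3% under restriction at day 1. At day 5 it had 92.7% and 91.1% in control medium and 56.5% and 66.9% under restriction. The groups stood apart on both days, and cover fell by 39.7 points (SE 4.56, adjusted p = 0.00035, limma) and by 30.2 points (SE 4.56, adjusted p = 0.0010, limma), although the day 5 call was lost after centring (adjusted p = 0.058, limma).

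Psmd8 (chr7:29174187-29180673), a lid subunit in a gene of 6.5 kb, went from 75.8% and 73.1% to 47.6% and 40.4% at day 1 and from 78.6% and 78.8% to 46.7% and 50.6% at day 5. Its difference was nearly the same on both days, -30.47 points (SE 3.65, adjusted p = 0.00041, limma) and -30.05 points (SE 3.65, adjusted p = 0.00032, limma). Psmd4 (chr3:95032688-95042614), the ubiquitin receptor, went from 71.2% and 80.5% to 52.1% and 51.4% at day 1 and from 87.9% and 80.8% to 56.7% and 55.7% at day 5. Here too each restricted library was below each control library, with differences of -24.07 points (SE 4.24, adjusted p = 0.0028, limma) and -28.17 points (SE 4.24, adjusted p = 0.0010, limma), the first of them not called after centring and neither of them with stricter peaks or lists of equal length (adjusted p of 0.077 to 0.15, limma). The day 5 call of Psmd8 was lost with stricter peaks (adjusted p = 0.12, limma).

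The activators of the PA28 family changed at day 1. Psme1 (chr14:55578494-55581527) and Psme2 (chr14:55587440-55591101) encode PA28 alpha and PA28 beta, which form 1 ring, and both genes lie near each other on the same chromosome. Psme1 was covered to 51.2% and 62.0% in control medium and to 17.1% and 0 under restriction, a difference of -48.04 points (SE 6.78, adjusted p = 0.00096, limma). With all lists trimmed to the same length the difference was again -48.04 points, and the adjusted p was 0.053 by limma. Psme2 was covered to 68.3% and 36.1% in control medium and to 20.2% and 0 under restriction, a difference of -42.11 points (SE 11.8, adjusted p = 0.023, limma), with the wide spread of its control libraries in the error. The call of Psme2 was lost without the first control library (-26.0 points) or the second restricted one (-32.0), and after centring. Psme3, PA28 gamma, fell by 16.7 points (SE 4.53, adjusted p = 0.020, limma), but its centred difference of -1.53 was not called, and leaving out either control library or the second restricted one also ended the call. Psme4 was at 43.8% and 53.9% in control medium and at 51.7% and 45.9% under restriction, groups that overlapped.

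At day 5, restriction lowered cover in 16 of the 43 members and raised it in 2. Over all tested genes 41.5% were called lower and 4.32% higher, so the members' shares were close to those of other genes. The median difference was -8.85 points over the members and -9.16 over all genes. Centring turned the split to 6 lower and 17 higher (1395 and 3757 of all genes), and trimming to equal length gave 10 lower and 4 higher (2070 and 1424). With peaks of −log10 q of at least 3 the counts were 6 lower and 2 higher (2287 and 610 of 8181 genes). Restricted lists covered 131 and 134 Mb at day 5, and control lists 183 and 171 Mb. The count was 10 without the first control library of day 5 and 9 without the second restricted one. The 6 called lower after centring were Psmb4, Psmb5, Psmb7, Psmc3, Psmd4 and Psmd8. Psmc3ip, one of the 2 that is no proteasome gene, fell by 33.9 points (SE 7.93, adjusted p = 0.0087, limma), a call lost after centring and without the first control or the second restricted library of day 5 (-22.4 and -26.9 points).

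Psmd10 and Psmf1 were the 2 members called higher under restriction at day 5, among 6 of the 43 whose difference was above 0. Psmd10 (chrX:140948425-140956711) encodes gankyrin, a chaperone of the 19S base that also binds cell cycle regulators. Its cover was 24.9% and 15.1% in control medium and 50.4% and 45.7% under restriction, a difference of 28.0 points (SE 5.78, adjusted p = 0.0049, limma). Both restricted libraries were above both control libraries, and this was also so at day 1, with 9.28% and 5.42% against 20.6% and 23.0%, a difference of 14.47 points that was not called (adjusted p = 0.081, limma). After centring the day 1 difference was 29.7 points (adjusted p = 0.0020, limma) and with lists of equal length 21.8 (adjusted p = 0.019, limma), both called. Over 34.6% of its length Psmd10 overlaps Atg4a, an autophagy gene, and in the 5.42 kb outside that overlap the day 5 difference was 42.9 points. The call held under all 20 alternatives tried.

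Psmf1 (chr2:151716062-151744199) binds the 20S core and inhibits it in vitro. It was at 49.9% and 49.8% in control medium and at 68.0% and 63.6% under restriction at day 5, a difference of 15.9 points (SE 4.12, adjusted p = 0.014, limma). At day 1 the values were 48.3% and 55.8% in control medium and 56.1% and 58.1% under restriction, and the difference of 5.06 points was not called (adjusted p = 0.37, limma), but after centring it was 20.2 points and called (adjusted p = 0.0039, limma). The day 5 call of Psmf1 was lost without either control library of day 5 or without the first restricted one, with an adjusted p of up to 0.095 (limma). Centring made the day 5 difference larger for both genes, 44.7 points for Psmd10 and 32.6 for Psmf1.

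**Figure D2:**
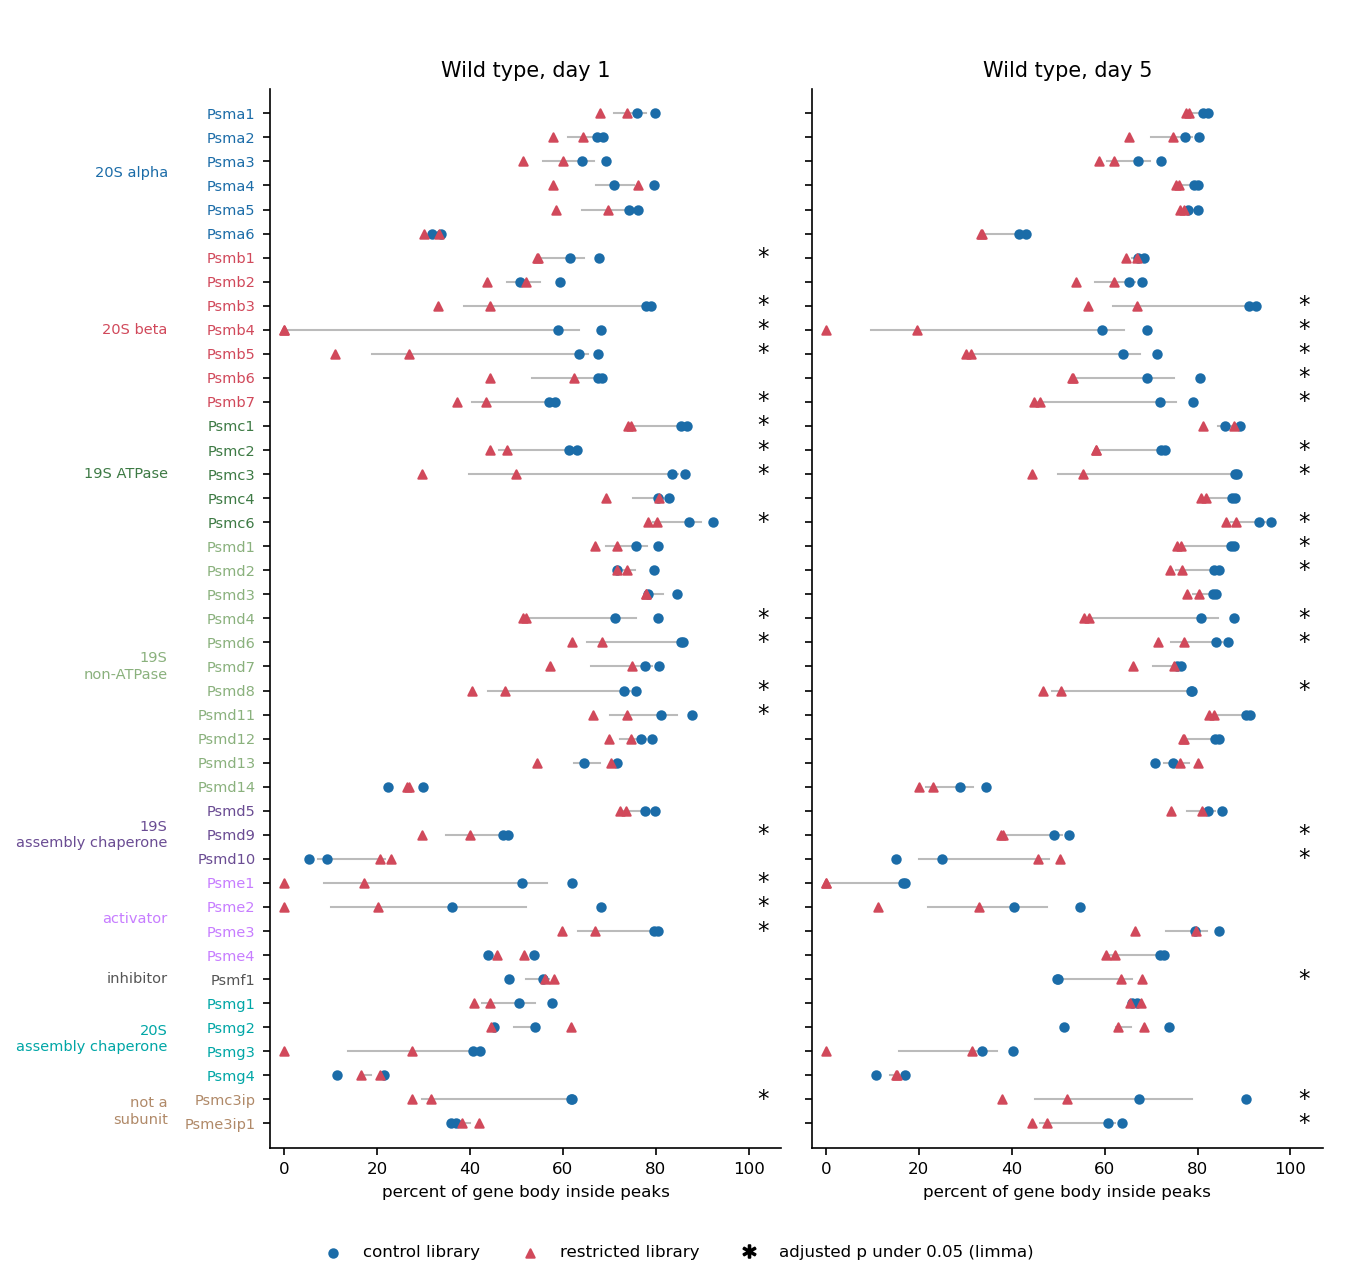
Cover of the 43 tested members in percent of the gene body, at day 1 and day 5 in WT cells, with 1 circle per control library, 1 triangle per restricted library and a line between the means. Asterisks mark adjusted p-values under 0.05 (limma), 18 at day 1 and 18 at day 5. With libraries centred on their medians the calls were 6 lower and 9 higher at day 1, and 6 lower and 17 higher at day 5.

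By role, 5 of 7 constitutive beta subunits were called lower on each day, with median differences of -17.35 points at day 1 and -30.10 at day 5, where 36% and 41.5% of all tested genes were called lower. After centring 3 of the 7 were lower on each day, and 1 was higher at day 5. Centring called 13.1% of all tested genes lower and 37.0% higher at day 1, and 14.7% and 39.5% at day 5. The alpha subunits, which form the neighbouring rings of the same barrel, had 0 of 6 called on either day, with medians of -7.61 and -6.36 and with every difference between -11.07 and -1.05, and with an unadjusted p under 0.05 in 2 and 1. With stricter peaks 1 alpha subunit was lower at day 1, and after centring 1 and 3 were higher. Among the ATPases 4 of 5 were called lower at day 1 and 3 of 5 at day 5, but after centring 1 was lower on each day, Psmc3, and 1 and 3 were higher. Among the other 19S subunits 4 and 5 of 11 were called lower, and after centring 1 and 2 were lower and 3 and 5 higher. For the activators the counts were 3 of 4 at day 1 and 0 of 4 at day 5, and after centring 1, Psme1, and 0. Of the 4 chaperones of 20S assembly 0 were called, 2 and 0 had an unadjusted p under 0.05, and after centring 1 and 2 were higher. Over all 9514 tested genes 4516 at day 1 and 5011 at day 5 had an unadjusted p under 0.05. The alpha genes tested were 7.3 to 34.2 kb long and the beta genes 2.5 to 55.9 kb, and no test of alpha against beta was made.

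Subunits of 1 ring could differ widely. Psmb1, a beta subunit, was at 61.5% and 67.7% in control medium and at 54.7% and 54.4% under restriction at day 1, and at 67.1% and 68.5% beside 67.0% and 64.7% at day 5. Its groups stood apart at day 1, with a call that held in 6 of 20 alternatives and a difference of 5.09 after centring, and nearly met at day 5, where the difference of -1.94 points was not called (SE 3.47, adjusted p = 0.68, limma). Psmb6 was called at day 5, with 80.6% and 69.1% in control medium and 53.2% and 52.9% under restriction, a difference of -21.79 points (SE 6.04, adjusted p = 0.018, limma) that fell to -5.12 after centring and was called in 15 of 20 alternatives, not without the first control library (-16.0 points) or either restricted one. Psmb2 was not called on either day, and its libraries overlapped at day 1, with 50.8% and 59.4% beside 52.1% and 43.7%.

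In the alpha ring the largest difference at day 1 was that of Psma5, with 76.2% and 74.2% in control medium and 69.7% and 58.6% under restriction. The groups did not overlap, but the difference of -11.07 points (SE 3.88, adjusted p = 0.053, limma) just missed the threshold. At day 5 Psma5 had 80.2% and 77.8% beside 77.1% and 76.2%. Psma6 had the lowest cover of the alpha subunits that carried peaks, at 31.8% and 33.8% in control medium and 33.4% and 30.1% under restriction at day 1, groups that overlapped.

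Among the ATPases, Psmc1 was at 86.7% and 85.5% in control medium and at 74.6% and 74.1% under restriction at day 1, a difference of -11.73 points (SE 2.61, adjusted p = 0.0084, limma) that turned to 3.45 after centring. At day 5 the restricted libraries of Psmc1 were at 81.1% and 87.8%, on either side of the second control library at 85.8%. Psmc6 (chr14:45329823-45349074), the member with the highest cover, was called lower on both days, with differences of -10.41 and -7.29 points. After centring it turned to 4.77 and 9.39 points higher, the second of them called (adjusted p = 0.0057, limma). Psmc4 was called on neither day, with -6.59 and -6.47 points. Among the other 19S subunits, Psmd13, a lid subunit, was the one with higher cover in both restricted libraries of day 5, 80.2% and 76.2% beside 74.8% and 70.8%, a difference of 5.38 points that was not called (SE 5.18, adjusted p = 0.43, limma).

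Among the assembly chaperones of the 20S core, Psmg3 was at 42.1% and 40.6% in control medium at day 1 and at 0 and 27.6% under restriction, and at 33.5% and 40.2% beside 31.4% and 0 at day 5. Its restricted libraries were lower throughout, but the SE of 10.8 points left neither difference called. Psmg1 was at 50.5% and 57.6% in control medium and at 44.4% and 40.9% under restriction at day 1, groups that did not overlap, with a difference of -11.40 points that was not called (SE 4.77, adjusted p = 0.093, limma). At day 5 it was at 67.1% and 65.9% beside 65.4% and 67.9%, close together and overlapping. Psmg2 was at 51.2% and 73.8% in control medium and at 68.6% and 62.9% under restriction at day 5, so that its control libraries lay on either side of the restricted ones.

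Short members had the largest median difference. Across the 43 members the Spearman correlation of gene length with the day 1 difference was 0.583, and across all 9514 genes it was 0.409; at day 5 the values were 0.322 and 0.155. These describe genes in the same libraries, which are not independent replicates. The 7 tested members of 2 to 5 kb had a median difference of -42.11 points at day 1, beside -27.25 for the 904 tested genes of that length, and the 14 members of 10 to 20 kb had -6.37 beside -9.25. At day 5 the short members had -25.48 beside -20.47, but the order by length did not go on from there. The 4 members over 50 kb had a median of -11.34 points with 2 called lower, those of 5 to 10 kb -8.90 and those of 10 to 20 kb -5.32, and of all genes 42.1% were called lower over 50 kb and 37.2% at 10 to 20 kb. Psmb7, at 55.9 kb, was one of the long members called lower, with 79.1% and 71.9% in control medium and 46.0% and 44.7% under restriction at day 5, a difference of -30.10 points (SE 4.66, adjusted p = 0.0012, limma). That call was lost with stricter peaks and with lists of equal length, where the difference was -2.47 points (adjusted p = 0.62, limma).

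**Figure D3:**
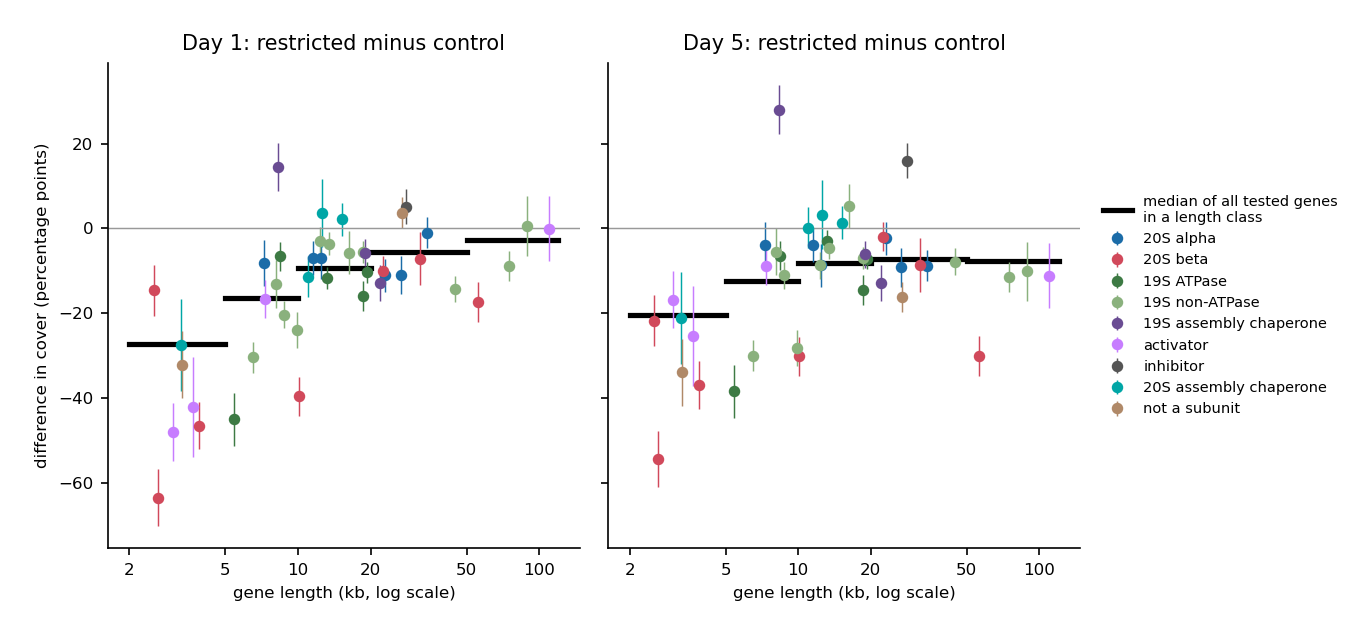
Difference in cover, restricted minus control, in percentage points against gene length in kb on a log scale, for the 43 tested members at day 1 and day 5. Bars on the points are the SE from limma, and black lines are medians of all tested genes of a length class. Members of 2 to 5 kb reach -63.57 points at day 1 (Psmb4), Psmd10 and Psmf1 lie above 0 at day 5, and the side of 0 on which members with small differences lie depends on the centring.

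Along the body, peaks began after the start and filled the 3′ part. Strand was known for 36 of the 43 tested members. Mean cover at day 0 was 5.24% in the first of 10 equal parts of the body and 91.4% in the last, and over the 7711 tested genes with strand these were 10.8% and 70.8%. Under restriction at day 1 both ends of the members lost a like amount in the mean: the first 3 parts went from 25.5% to 14.3%, and the last 3 parts from 85.8% to 73.8%. Over the 7711 genes the mean fell by 8.70 points in the first 3 parts and by 12.6 in the last 3. At day 5 the members went from 34.3% to 20.5% in the first 3 parts and from 87.0% to 81.0% in the last 3, and the mean over the 7711 genes fell by 11.9 and by 9.44 points. Medians over the members gave other sizes, 23.8% to 6.44% in the first 3 parts and 96.0% to 84.9% in the last 3 at day 1. No test was made of one end against the other. In 34 of the 36 members the last 3 parts had more cover than the first 3 in both restricted groups; Psmb4 had no peak in either end at day 1 and Psme1 none at day 5.

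Members differed in where cover was lost. In Psmb4 the last 3 parts went from 100% to 0 at day 1, so that the whole body was without a peak. In Psmd4 the last 3 parts were at 100% in both media on both days, while the first 3 went from 31.6% to 0 at day 1 and from 57.9% to 0 at day 5. In Psmd10 the gain at day 5 lay at the 3′ end, with the last 3 parts at 0 in control medium and at 69.7% under restriction. These values are means of 2 libraries and were not tested.

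**Figure D4:**
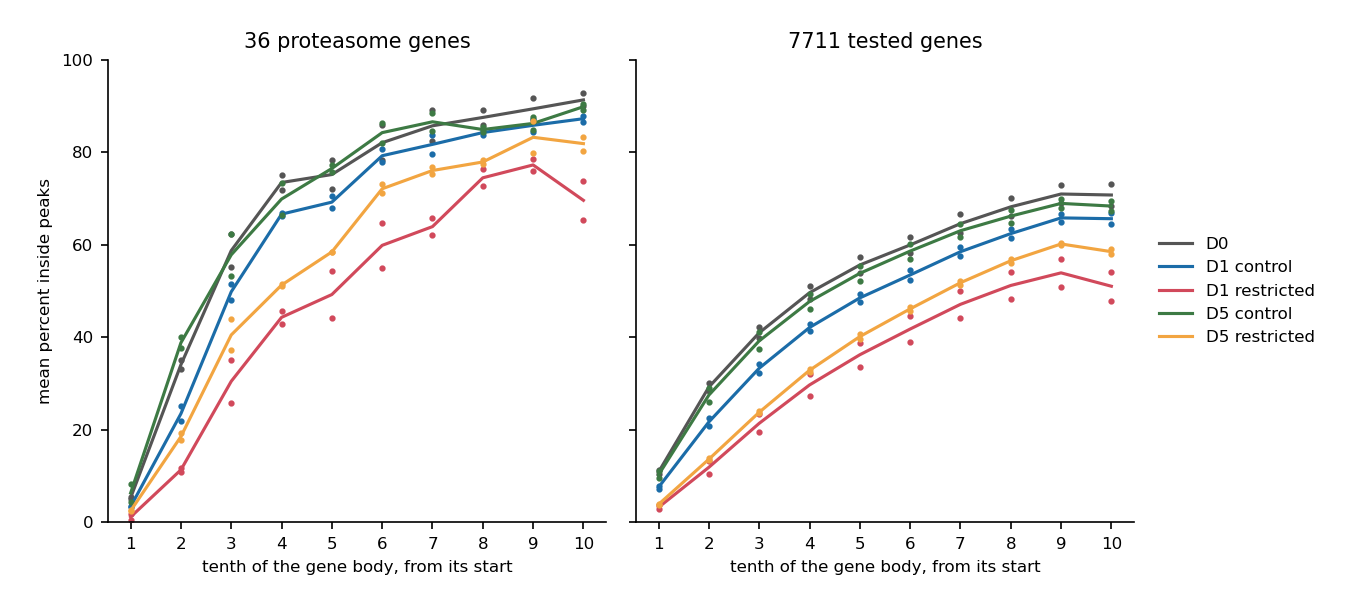
Mean percent inside peaks in each of 10 equal parts of the gene body, counted from the start of transcription, for 36 proteasome genes and 7711 tested genes. Lines are means of 2 WT libraries and dots are the single libraries, with 1 colour per condition. Cover was lowest in the first part in each condition, and the mean over the members was lower under restriction than in control medium of the same day in each part of the body.

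From day 0 to day 1 in control medium, 0 of the 43 members passed the limma test, and 10 had an unadjusted p under 0.05. Of all 9514 tested genes 0.967% were called higher and 5.67% lower, and 2379 had an unadjusted p under 0.05. From day 1 to day 5, 2 members rose and 1 fell (17.1% and 5.95% of all tested genes). From day 0 to day 5, 1 rose and 1 fell (12.2% and 15.6%). Centring turned the split of all genes each time, to 227 higher and 108 lower of 9514 from day 0 to day 1, 988 and 1176 from day 1 to day 5, and 1615 and 1298 from day 0 to day 5. The members called higher and lower were then 0 and 0, 2 and 1, and 3 and 1. Without the second day 0 library 3 were called from day 0 to day 1. From day 1 to day 5 it was 7 without either day 0 library and 5 without either restricted library of day 1, and from day 0 to day 5 it was 4 without the first day 0 library and 1 without the first control library of day 5. The median difference from day 0 to day 5 was -0.020 points over the members.

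Psme1 was the member that fell. It had 68.9% and 54.3% at day 0, 51.2% and 62.0% at day 1 and 17.04% and 16.6% at day 5, all in control medium. The day 5 libraries were far under the others, with a difference of -39.77 points from day 1 (SE 6.78, adjusted p = 0.0037, limma) and of -44.74 from day 0 (SE 6.78, adjusted p = 0.0015, limma). The fall from day 1 was called under all 20 alternatives, and that from day 0 was lost with lists of equal length (adjusted p = 0.28, limma). Psme2, which lies near it, stayed at 54.7% and 40.4% at day 5, which was not called different from either earlier day.

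Psme3ip1 rose, from 45.9% and 45.0% at day 0 and 37.0% and 35.98% at day 1 to 63.6% and 60.8% at day 5. The differences were 16.8 points from day 0 (SE 3.62, adjusted p = 0.0090, limma) and 25.7 points from day 1 (SE 3.62, adjusted p = 0.0013, limma). The rise from day 0 was not called with stricter peaks (adjusted p = 0.10, limma), with only the groups compared (adjusted p = 0.065, limma) or without the first control library of day 5. Psmb7 went from 57.1% and 58.4% at day 1 to 79.1% and 71.9% at day 5, a difference of 17.7 points (SE 4.66, adjusted p = 0.027, limma). The call was lost without either control library of day 1 or the first of day 5, with lists of equal length the difference was -2.74 points, and at day 0 Psmb7 had stood at 79.8% and 69.7%.

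The effect of restriction at day 5 was set against that at day 1 in the same model. No member passed (0 of 43 by limma, 3 with an unadjusted p under 0.05), against 5.20% of all tested genes called in either direction. Of all 9514 tested genes 1936 had an unadjusted p under 0.05. Psme1 had the largest difference between days, 31.2 points (SE 9.59, adjusted p = 0.11, limma), as its day 5 control libraries were already low. Psme3ip1 was at 42.0% and 38.3% under restriction at day 1, above both control libraries, and at 47.6% and 44.4% at day 5, below both. Its difference between days of -19.84 points (SE 5.12, adjusted p = 0.066, limma) was not called. Psme1 was called under centring and with stricter peaks, Psmf1 with lists of equal length and Psme3ip1 with no filter on cover.

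In the Setd2 KO lines the median cover of the 50 members was 0.918% or less in 8 of the 10 libraries. In the other 2, both of line 1 at day 5, it was 29.0% for the control and 2.06% for the restricted library. Cover was higher in WT than in KO libraries for 43 of the 50 members, by an exact permutation test with genotype permuted within each condition and adjusted over 19304 genes. Of all those genes 50.5% were called in that direction. The 7 not called were Psma7, Psma8, Psmb8, Psmb9, Psmb10, Psmb11 and Psmc5. With KO line 1 only, 41 were called and Psmb4 and Psme1 were lost, and with peaks of −log10 q of at least 3, 40 were called and Psmd10, Psme1 and Psme2 were lost. Of all 19304 genes 8462 and 8106 were called higher in WT in these 2 alternatives, beside 9745. The smallest adjusted p was 0.00067, from the smallest p that the 7776 arrangements allow, and it rests on 2 lines that recur in all 5 conditions and are not independent between them. The difference ran from 16.8 points for Psmg4 to 79.8 points for Psmc4 among the members called.

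In none of its 5 libraries did KO line 2 mark a member (0 of 50), and its highest cover of any member was 3.55%, at Psma6 in the day 5 control list. Of all 19304 genes it likewise marked 0 in each library, with a highest cover of 43.8%, also in the day 5 control list. Line 1 had 2 marked members at day 0, Psmd2 at 55.0% and Psmc3 at 54.1%, and 0 at day 1 in either medium. Of all genes 1.06% were marked in line 1 at day 0, and 0.818% and 0 at day 1 in control and restricted medium. The day 5 control library of line 1 had 20 of the 50 members marked, or 40%, against 8.40% of all genes. At day 5 under restriction 3 were marked, or 6%, against 3.32%. Each of these is 1 library, with no replicate and no test. That list covered 74.1 Mb, beside 17.7 Mb at day 0, and whether more reads, more residual mark or another cause lies behind this was not tested.

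The 5 members with the highest mean over the 10 KO libraries, a mean that rests mostly on line 1 at day 5, were Psmd2 (22.0%), a scaffold of the 19S base, the ATPases Psmc3 (21.2%) and Psmc6 (20.8%), and the lid subunits Psmd7 (17.5%) and Psmd12 (13.6%). At day 5 in control medium Psmc6 was at 97.6% in line 1 and at 95.9% and 93.2% in WT. Psma2 was at 83.8% beside 80.2% and 77.3%, Psmb4 at 68.0% beside 69.1% and 59.4%, and Psmd2 at 84.6% beside 84.7% and 83.6%. Of the 44 members with any WT cover in these libraries, 11 had a line 1 value within 10 points of the WT mean or above it (3298 of 10777 over all such genes), and 1 of the 11 was Psmb10, at 0 beside 9.38% and 0. Psmc4, by contrast, was at 17.8% beside 87.4% and 88.0%, and Psmf1 and Psmg1 were at 0 beside 49.9% and 49.8%, and 67.1% and 65.9%.

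Between day 0 and day 5 in control medium 37 of the 50 members had more cover in line 1 and 0 had less, beside 40.5% and 3.33% of all 19304 genes. Restriction at day 5 went with less cover in 36 members of line 1, beside 36.6% of all genes, with 45.8 Mb covered in the restricted list and 74.1 Mb in the control list. The mean cover of all genes was 2.96% at day 0, 10.7% in the day 5 control library and 5.20% in the restricted one. The exception was Psmc3, at 56.6% in control medium and 59.5% under restriction, a gene that in WT fell by 38.4 points in the same comparison. Psmb4 went from 68.0% to 0 in line 1, Psmb5 from 58.7% to 0, Psma2 from 83.8% to 19.6% and Psmc6 from 97.6% to 62.4%.

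**Figure D5:**
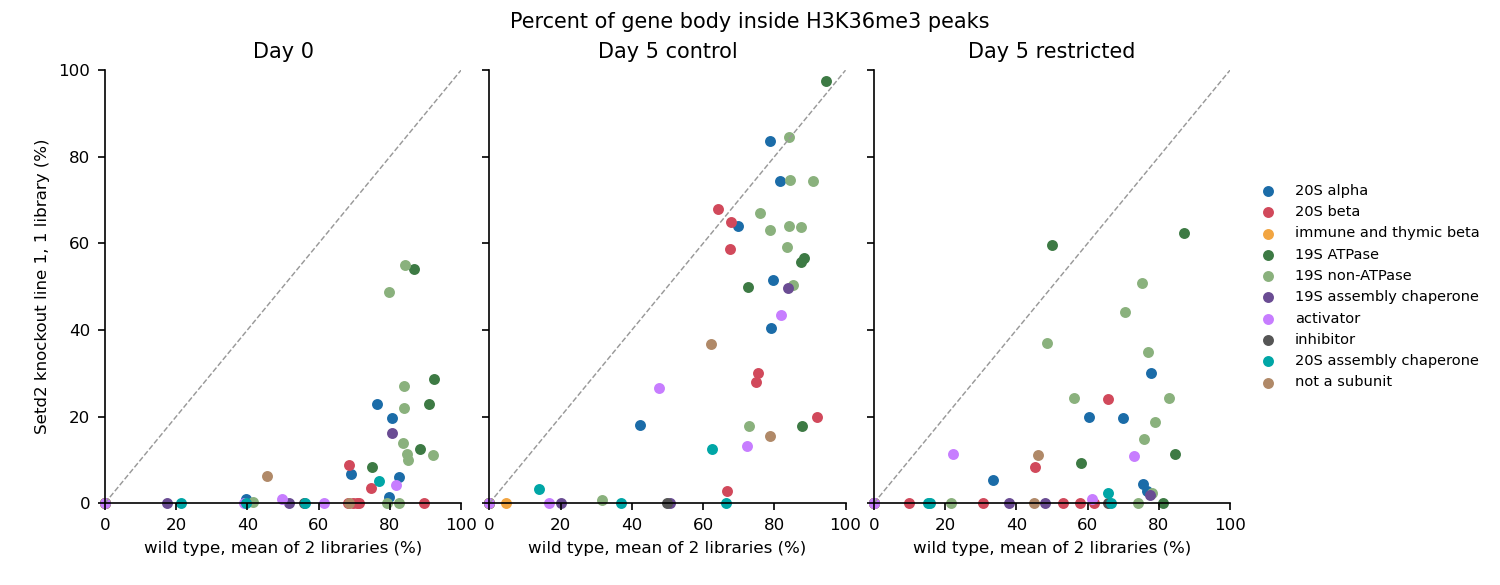
Each point is 1 proteasome gene, coloured by role, with its cover in WT (mean of 2 libraries, percent of gene body) on the x axis and in Setd2 KO line 1 (1 library) on the y axis at day 0, day 5 in control medium and day 5 under restriction. The dashed line marks equal cover. At day 5 in control medium 20 members of line 1 are at 50% or more, beside 2 at day 0.

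Other genes of the pathway without the Psm symbol were taken from a list of 32, of which 31 were found in the gene table and tested. Under restriction 14 of the 31 were called lower and 0 higher at day 1, and 18 lower and 0 higher at day 5, beside 36% and 41.5% of all tested genes lower. After centring the counts were 4 lower and 8 higher at day 1, and 7 lower and 10 higher at day 5. The centred shares of all tested genes were 13.1% lower and 37.0% higher at day 1, and 14.7% and 39.5% at day 5. Adrm1, the 19S ubiquitin receptor that the symbol rule leaves out, went from 78.1% to 51.8% in the mean at day 1 and from 85.7% to 53.5% at day 5. Nfe2l1, the factor that induces proteasome genes when the proteasome is inhibited, went from 66.9% to 36.5% at day 1 and from 78.5% to 40.9% at day 5. Pomp, the assembly chaperone of the 20S core, fell from 82.5% to 66.6% at day 1 (adjusted p = 0.0024, limma), and its 80.8% and 87.2% in the control and restricted groups of day 5 were not called different (adjusted p = 0.090, limma).

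From day 0 to day 5 in control medium 4 of the 31 rose and 2 fell, beside 12.2% and 15.6% of all tested genes. Trim63, the muscle ubiquitin ligase MuRF1, was at 0 at day 0 and at 84.5% at day 5, and under restriction at day 5 at 22.9%. Fbxo32, the ligase atrogin-1, rose from 51.3% to 71.4% and stood at 45.4% under restriction. Summed over 8 markers of differentiated muscle, cover was 71.3 points at day 0, 309.5 and 84.4 at day 1 in control and restricted medium, and 644.3 and 225.6 at day 5. Ttn alone made up the day 0 sum and 74.5 points of the 84.4. Of 15 markers of other cell types 11 were at 0 in all 10 WT libraries and 0 reached 50%. The one with most cover was Cd74, a leukocyte marker, at 22.6% at day 0. In control medium it was at 1.35% at day 1 and 9.03% at day 5. Both were called lower than day 0 (adjusted p = 0.0043 and 0.0051, limma). The sum over 5 myoblast markers was 282.0 and 121.1 points in control and restricted medium at day 1, and 248.5 and 125.1 at day 5. Both marker sums were lower under restriction on both days, and their part in the members' values was not tested.

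The lists held 63423 to 87398 peaks in the WT libraries and covered 110 to 183 Mb. In KO line 1 they covered 0.307 to 74.1 Mb, and in KO line 2 0.00821 to 7.13 Mb. Sequencing depth cannot be read from such lists, and cover says how far peaks extended, not how high the mark was.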

How the data were processed

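H3K36me3 ChIP-seq of C2C12 cells was deposited as 20 lists of broad peaks, 1 per library and not pooled. Reads were 75 nt from a single end, per the labels' protocols, and the build is GRCm38, per the submitters' processing notes. The aligner, peak caller and its control are not given in the sources used here. The fold enrichment (a ratio), the −log10 p and −log10 q and the score of each peak are the authors' deposited values. The fold ranked peaks within a list, a −log10 q of at least 3 was an alternative, and the score was not used. Neither input nor spike-in reads entered any value here. The depth is unknown.

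Overlapping peaks of a list were merged (autosomes, X and Y), and the percent of each gene body inside them was computed (Python 3.11.15, numpy 2.4.6, pandas 2.3.3). Gene bodies came from RefSeq GRCm38.p6. Genes of at least 2 kb with a mean of at least 5% over the 10 WT libraries were tested with limma 3.58.1 (R 4.3.3; trend and robust) in a model of 5 groups, with Benjamini-Hochberg adjustment over all genes. WT and KO were compared per gene by a two-sided exact permutation test within condition. The members, roles, pathway list, markers and tests were chosen with earlier results of these data known. Named are, per contrast, up to 5 called members per direction with the largest difference, the highest and lowest member of each role, the 5 highest in KO libraries, the member under 2 kb and the immunoproteasome pairs; other members were chosen after their values were seen. Some genes of the pathway list are not reported here by name. Alternatives were peak stringency, equal covered length, centring, filters, overlap with other genes, an arcsine scale, fewer groups, the replicate number as a block, and leaving out each library.

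On simulated data with 200 genes changed by 30 points limma recovered 66.0% to 74.5% of them, with 6.38% to 9.93% false calls, above the nominal rate. The interval arithmetic differed from base-by-base counting in 0 of 200 simulated sets.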

Additional observations from a re-analysis of the deposited data

How the results depend on the processing

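Under restriction at day 5, 8 members were called with peaks of −log10 q of at least 3, 6 lower and 2 higher, beside 18. Of the 43 members called higher in WT than in KO libraries, 41 were called with KO line 1 only and 40 with those peaks. The count from day 1 to day 5 was 5 with only the groups compared, beside 3. From day 0 to day 5 it was 4 with lists of equal length, 4 with centring and 1 with only the groups compared, beside 2. For the restriction effect at day 5 against day 1, beside 0, it was 1 with the stricter peaks, 1 with equal length, 1 with centring and 1 with no filter on cover. Leaving out each library in turn gave 10 to 25 calls for restriction at day 1, lowest without the first control library of day 1, and 9 to 21 at day 5, lowest without the second restricted library of day 5. The same gave 0 to 3 from day 0 to day 1, 2 to 7 from day 1 to day 5, 1 to 4 from day 0 to day 5 and 0 to 0 between the effects. A lone library left in a group was assumed to vary like the others. At 75% cover, 22.5 members were marked at day 0 (mean of 2 libraries), 16.5 at day 1 control, 3.0 at day 1 restricted, 21.5 at day 5 control and 13 at day 5 restricted, and at 25% 37.0 at day 1 restricted. Leaving out a library moved the marked counts from 35.0 to 37.0 at day 0, 33.0 to 35.0 and 22.0 to 24.0 at day 1, and left 35.0 and 30.0 at day 5.

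Centring reversed the sign of 12 called differences. At day 1 these became 5.09 points for Psmb1, 3.45 for Psmc1, 4.77 for Psmc6, 0.81 for Psmd11 and 2.32 for Psmd9. At day 5 they became 2.17 for Psmc2, 9.39 for Psmc6, 5.14 for Psmd1, 7.92 for Psmd2, 5.60 for Psmd6, 3.82 for Psmd9 and 0.50 for Psme3ip1. Those of Psmc6 and Psmd2 at day 5 were called higher (adjusted p = 0.0057 and 0.044, limma). Equal length reversed Psmd9, to 4.92 at day 1 and 2.27 at day 5, and Psmb7 from day 1 to day 5, to -2.74. Of 819 values of 41 results on single members, 681 kept direction and call, 123 lost the call and 15 reversed, and 11 results kept both in all alternatives run. The causes were not tested.

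Replicate numbers are shared between groups, but the labels pair nothing. Deviations of same-numbered libraries correlated at -0.44 for day 0 with day 1 control and at -0.083 to 0.061 for the other 9 pairs of groups. With the replicate block the counts were 17 and 15 under restriction at day 1 and day 5, 0, 3 and 2 between days, and 0 for the difference between effects. Depth is unknown, and the input was not used here.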
